A study of Arabidopsis thaliana with 40 samples.

Results

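The 10 genes described here belong to the seed maturation programme of *Arabidopsis*, out of 33323 nuclear gene IDs in the count files. They were taken by gene ID, with earlier results of these data known. They comprise 6 regulators, *LEC1* (AT1G21970), *L1L* (AT5G47670), *LEC2* (AT1G28300), *FUS3* (AT3G26790), *ABI3* (AT3G24650) and *DOG1* (AT5G45830). The other 4 encode seed storage or oil body proteins, namely *CRA1* (AT5G44120), *CRB* (AT1G03880), *CRC* (AT4G28520) and *OLEO1* (AT4G25140).

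RNA was sequenced from whole seedlings of Col-0 wt, the T-DNA insertion mutants *ubp12* (allele *ubp12-1*) and *ubp13* (allele *ubp13-3*), and the double mutant *ubp12/13* that carries both alleles. Each of these 4 genotypes had 3 libraries. UBP12 and UBP13 are ubiquitin-specific proteases that can remove ubiquitin from histone H2A. The seedlings had grown for 15 days on medium and were collected 6 to 8 h after lights came on. The double mutant is sterile and was kept heterozygous for *ubp13-3*, which the study describes as a weak allele, and its plants are stunted. A second data type gave regions with more H2Aub1, histone H2A with 1 ubiquitin, in *ubp12/13* than in wt. These came from rosette leaves of plants moved from medium to soil for 2 weeks, with 2 ChIP-seq replicates per genotype. The RNA and the chromatin thus came from different organs and ages, and the regions are merged over replicates, so that they carry no depth or error. Only regions of H2Aub1 increase were read here. According to the study, more genes lost this mark than gained it in the double mutant. A gene without a peak can thus have lost H2Aub1 or kept it unchanged. The study also states that its antibody reacts with a ubiquitinated variant of the histone.

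In a developing seed, LEC1, LEC2, FUS3 and ABI3 switch on the storage protein, oil body and desiccation genes. LEC1 and L1L are NF-YB subunits of a CCAAT-binding complex, whereas LEC2, FUS3 and ABI3 are B3-domain factors that bind the RY motif CATGCA. After germination the programme is shut off, and the H2A ubiquitin ligases of Polycomb repressive complex 1 (PRC1) and the methyltransferases of PRC2 are known to keep it silent in seedlings, with the B3-domain repressors VAL1 and VAL2. DOG1 promotes seed dormancy together with the abscisic acid pathway.

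Library depth bounds every value. The libraries held 6545534 to 15225396 counts on nuclear genes. The *ubp13* and *ubp12/13* libraries were deeper than the others. A count of 0 in a library allows a level of up to 3 counts, which is 0.176 to 0.470 CPM (counts per 1000000 after TMM scaling), for counting error only. In wt replicate 3, organellar genes took 6.15% of the counts. *UBP12* (AT5G06600) had 99.1 ± 2.61 CPM in wt, 25.7 ± 2.19 in *ubp12* and 32.4 ± 4.80 in *ubp12/13* (SD, n = 3). *UBP13* (AT3G11910) went against its label, with 63.2 ± 0.778 CPM in wt, 158 ± 11.6 in *ubp13* and 78.8 ± 1.68 in *ubp12/13* (SD, n = 3). Gene-level counts cannot tell intact *UBP13* transcript from a truncated one, so the *ubp13* and *ubp12/13* libraries are named by their labels throughout, and every direction given for them rests on these labels. Marker genes were read for the tissue. All 4 leaf genes were abundant, with summed levels of 51263 to 59667 CPM in wt and 38818 to 44399 in *ubp12/13*, without overlap. Of the 4 root genes, *EXP7* and *COBL9* had at most 1 count in any library and *PRP3* at most 8, although the label is whole seedlings. *CASP1*, an endodermis gene, had 0 to 6 counts in the other genotypes and 21 to 25 in *ubp12/13*. The root genes summed to 0.157 to 0.375 CPM in wt and 1.47 to 1.66 in *ubp12/13*. That higher sum was *CASP1* alone, since *PRP3* had 2, 3 and 0 counts in wt and 0 in each *ubp12/13* library. The 3 seed coat and endosperm genes, *TT12*, *BAN* and *EPR1*, had at most 1 count each in any library, so that remains of the seed were not detectable through them.

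Of the 10 genes, 4 lay under a peak of H2Aub1 increase among 1285 such peaks, namely *LEC1*, *DOG1*, *CRA1* and *OLEO1*. Within 1 kb after the gene start the count was 3 (*DOG1*, *CRA1* and *OLEO1*), against 982 of 27444 protein-coding genes (3.58%). By the whole gene body it was 4, against 1104 genes (4.02%). Genes with few RNA counts carried these peaks more often: 644 of the 9927 protein-coding genes under the RNA filter (6.49%) had one in the first 1 kb, and 338 of the 17517 that passed it (1.93%). No test was made of these shares, since the genes were chosen with results of these data known.

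The sequence before the annotated start is shown for the 3 genes whose start lay inside a peak, since their upstream DNA was part of the region that gained H2Aub1. Capitals mark the RY motif (CATGCA, or TGCATG on the other strand) and the G-box CACGTG, which bZIP factors such as ABI5 are known to bind. The sequences are from the RefSeq TAIR10.1 genome, whose nuclear chromosomes have TAIR10 coordinates, 5′ to 3′ in the direction of the gene. They span chr5:18591507-18591756 for *DOG1* on the minus strand, chr5:17758337-17758586 for *CRA1* on the minus strand and chr4:12900180-12900429 for *OLEO1* on the plus strand.
DOG1: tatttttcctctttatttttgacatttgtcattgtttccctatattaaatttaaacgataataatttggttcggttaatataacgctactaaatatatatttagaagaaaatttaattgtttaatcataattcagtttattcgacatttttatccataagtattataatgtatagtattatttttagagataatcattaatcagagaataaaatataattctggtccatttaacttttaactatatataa
CRA1: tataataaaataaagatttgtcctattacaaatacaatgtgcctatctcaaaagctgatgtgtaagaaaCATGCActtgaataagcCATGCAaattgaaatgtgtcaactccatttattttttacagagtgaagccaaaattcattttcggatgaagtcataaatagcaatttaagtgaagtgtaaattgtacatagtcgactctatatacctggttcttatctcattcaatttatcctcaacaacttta
OLEO1: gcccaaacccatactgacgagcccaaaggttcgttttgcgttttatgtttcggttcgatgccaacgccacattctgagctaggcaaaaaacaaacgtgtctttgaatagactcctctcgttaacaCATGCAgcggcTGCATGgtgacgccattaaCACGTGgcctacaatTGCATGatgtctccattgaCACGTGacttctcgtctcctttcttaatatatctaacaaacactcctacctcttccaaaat

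The 3 sequences differ in their motifs. The *DOG1* window has no RY motif and no G-box. The *CRA1* window has 2 RY motifs, beginning 181 and 164 bp before the start, both inside the peak, which covers the 208 bases nearest the gene. The *OLEO1* window lies wholly in its peak, and holds 3 RY motifs, beginning 125, 114 and 80 bp before the start, and 2 G-boxes, at 95 and 61 bp. Among the 250 bp before all 27444 protein-coding genes, 8.43% hold an RY motif and 0.328% hold 3 or more, and 6.49% hold a G-box. The other windows hold 1 RY motif for *FUS3* and 1 for *CRC*, and none for *LEC1*, *L1L*, *LEC2*, *ABI3* and *CRB*. In 1000 bp centred on the peak, the *CRA1* and *OLEO1* peaks hold 3 RY motifs each and the *DOG1* and *LEC1* peaks none, while 49.1% of all 1285 peaks hold at least 1. In the same windows the *OLEO1* peak holds 2 G-boxes, the *DOG1* peak 1 and the other 2 peaks none, beside 20.3% of all peaks with at least 1. REF6, an H3K27 demethylase, binds the words CTCTGCTC, CTCTGCTT, CTCTGTTC and CTCTGTTT. On both strands 1 such word was found in the centred window of the *OLEO1* peak and none in those of the other 3 genes, with 30.2% of all peaks holding 1 or more. Such matches describe letters and are no evidence of binding.

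The peaks sat differently on the 4 genes. At *DOG1* (chromosome 5, 18589418 to 18591506) the peak of 2412 bp reached from 881 bp before the start to 1530 bp after it, and covered 1531 of 2089 bp of the gene, of which 1177 bp are exonic and 927 bp coding. Its width exceeded that of 89.4% of all peaks, whose median was 1192 bp. At *CRA1* (chromosome 5, 17756238 to 17758336), which encodes a 12S cruciferin, a peak of 2256 bp covered 97.6% of the gene. At *OLEO1* (chromosome 4, 12900430 to 12901577), which encodes an oleosin of the oil body surface, a peak of 1835 bp covered 784 of 1148 bp. This peak reached 1051 bp upstream and also overlapped the divergent neighbour *PMSR4* (AT4G25130). At *LEC1* (chromosome 1, 7727577 to 7729649) a peak of 1121 bp began 1003 bp after the start and covered the distal 1070 bp of the gene, 665 bp of them coding. It lay 4 bp beyond the first 1 kb, and its assignment depends on where the start is annotated.

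**Figure D1:**
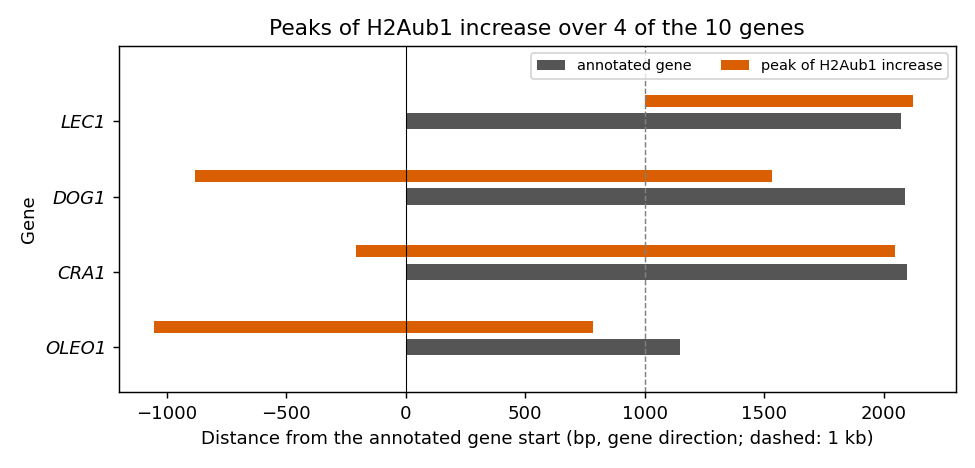
Position of the peaks of H2Aub1 increase in *ubp12/13* (orange) along 4 genes (grey), in bp from the annotated start in the direction of the gene, with a dashed line at 1 kb. The peaks over *DOG1*, *CRA1* and *OLEO1* cross the start, and that over *LEC1* begins 1003 bp after it.

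The 6 genes without a peak were *L1L*, *LEC2*, *FUS3*, *ABI3*, *CRB* and *CRC*. The nearest peak to *ABI3* lay 3245 bp away, and for the others the distance was 17127 bp (*CRB*) to 53510 bp (*CRC*). By the whole gene body, peaks fell on 1 of the 2 NF-YB genes and on 1 of the 3 cruciferin genes. None of the 3 B3-domain genes had one. The NF-YB gene, *LEC1*, had its peak beyond the first 1 kb. Over all protein-coding genes the share by gene body was 4.02%. With so few genes per class, these counts do not tell the classes apart.

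Which of these genes were transcribed in seedlings was read from the counts. *DOG1* was the only 1 of the 10 with counts above the filter, CPM over 1 in at least 2 libraries of a comparison. *LEC1*, *ABI3* and *CRB* had 0 counts in all 12 libraries. The remaining 6 genes had 1 to 20 counts summed over all libraries, and at most 7 in any of them.

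*DOG1* had 3.04, 7.75 and 4.86 CPM in wt replicates 1, 2 and 3. The 3 *ubp12* libraries had 8.48, 9.09 and 11.4 CPM. The 3 *ubp13* libraries had 5.71, 8.15 and 6.81 CPM. The 3 *ubp12/13* libraries had 15.5, 14.9 and 14.4 CPM. All *ubp12/13* libraries lay above all 9 others, all *ubp12* libraries lay above all wt libraries, and the *ubp13* libraries overlapped those of wt. The values rest on 28 to 62 counts in wt, 75 to 78 in *ubp12*, 67 to 97 in *ubp13* and 191 to 253 in *ubp12/13*.

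**Figure D2:**
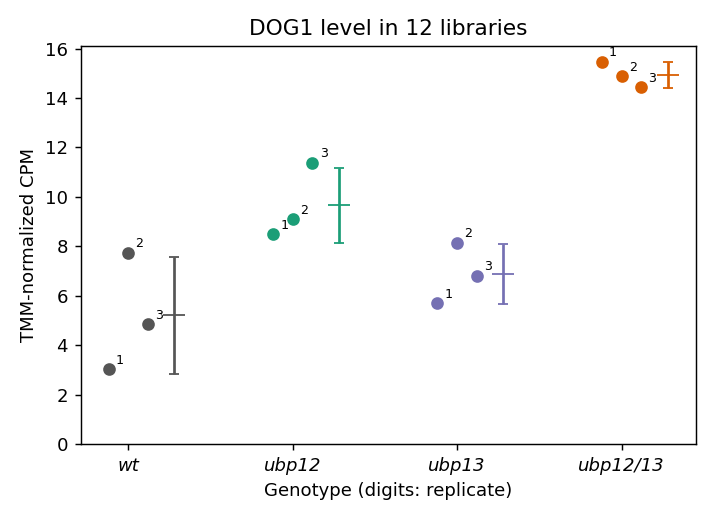
*DOG1* level in TMM-normalized CPM for each library (points, with the replicate number) of the 4 genotypes, with the mean and SD beside them (n = 3). The *ubp12/13* libraries, at 14.4 to 15.5 CPM, sit above all others, and wt replicate 2, at 7.75 CPM, sits within the range of *ubp13*.

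By mean level the order was wt (5.22 ± 2.37 CPM), *ubp13* (6.89 ± 1.22), *ubp12* (9.65 ± 1.53) and *ubp12/13* (14.9 ± 0.525; SD, n = 3 each). Per kb of exon these means are 3.01, 3.97, 5.56 and 8.60 CPM. Between wt and *ubp13* the difference lay within the spread of the libraries. The contrast of *ubp12* with *ubp13* was not fitted, and their ranges did not overlap.

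*DOG1* was 2.88-fold higher in *ubp12/13* than in wt (log2FC 1.53, standard error 0.26, adjusted p = 0.00277, edgeR). It was thus 1 of 1 tested among the 10 genes. In this comparison 9.96% of all 17916 genes tested were called and 5.94% were called higher, where a call needed a change of at least 1 on the log2 scale in either direction and an adjusted p below 0.05. With library totals in place of TMM the median of all tested genes moved by 0.15 and the split of calls from 1064 higher and 720 lower to 1362 and 539. The log2FC of *DOG1* was then 1.67. An exact permutation test of its CPM (3 against 3, two-sided) gave p = 0.1, the smallest that this design allows. Marker genes also separated these groups, among them the leaf genes given above and, of the root genes, *CASP1* alone. The 3 genes of oil breakdown in germinating seedlings summed to 149 to 154 CPM in wt and 124 to 136 in *ubp12/13*. In this list *ICL* was at 0 throughout and *MLS* was called lower (log2FC −1.28, adjusted p = 0.0166 by edgeR, 0.0624 by DESeq2). The 3 flower genes, at 0.109 to 0.750 CPM in wt and 0 to 0.235 in *ubp12/13*, overlapped. The part of these tissue markers in the *DOG1* value was not tested. More cells with *DOG1* transcript and more transcript per cell cannot be told apart in whole seedlings.

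In the single mutants *DOG1* did not pass the test. Against wt, the log2FC in *ubp12* was 0.89 (standard error 0.28, adjusted p = 0.158, edgeR), where 0.683% of all genes were called. It was under the 0.05 threshold before adjustment, by edgeR (unadjusted p = 0.00955) and by DESeq2 (unadjusted p = 0.00378, adjusted p = 0.106). A single library decided this call, since without wt replicate 2 the log2FC was 1.32 with an adjusted p of 0.0297 by edgeR. In *ubp13* the log2FC was 0.41 (standard error 0.29, unadjusted p = 0.187, adjusted p = 0.873, edgeR), where 0.0284% of all genes were called. DESeq2 gave an unadjusted p of 0.195 there.

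The double mutant was also compared with each single mutant. Against *ubp12*, *DOG1* was 1.55-fold higher (log2FC 0.63, standard error 0.13, adjusted p = 0.00749, edgeR), which passed the p threshold and not the fold minimum, so that 0 of the 10 genes were called beside 7.12% of all genes. Against *ubp13* the log2FC was 1.11 (standard error 0.14, adjusted p = 5.66e-04, edgeR), a call, beside 9.9% of all genes. Without *ubp13* replicate 1 it was 0.98 (adjusted p = 0.0027, edgeR), just under the fold minimum. The comparisons of *ubp12/13* share their double mutant libraries.

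The interaction contrast asks whether the double mutant differs from the sum of both single mutant effects. For *DOG1* it was 0.22 (standard error 0.34, unadjusted p = 0.517, adjusted p = 0.714, edgeR), while 6.37% of all genes were called. DESeq2 gave an unadjusted p of 0.519. A departure from additivity on the log2 scale was not detectable at this spread, and without wt replicate 2 the value was −0.21.

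**Figure D3:**
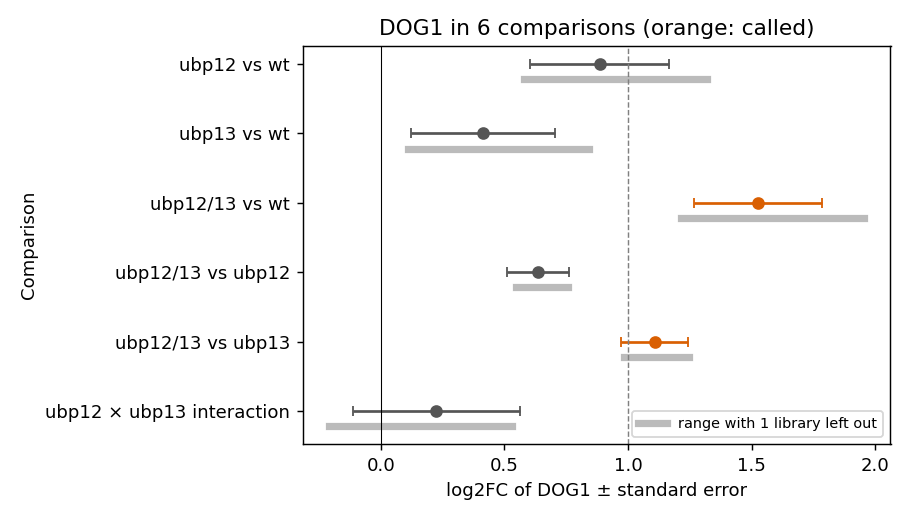
log2FC of *DOG1* with its standard error in 6 comparisons (points; orange where called, dashed line at the fold minimum), above the range of values with each library left out in turn (grey bars). Both called comparisons involve *ubp12/13*, and the range for the interaction, −0.21 to 0.53, spans 0.

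Reads from *DOG1* cannot be assigned to a strand, since the library kit used does not keep it, and an antisense transcript is known at this locus. The annotated neighbours were read beside it. *CIPK20* (AT5G45820), a protein kinase gene that begins 625 bp beyond the *DOG1* 3′ end on the same strand, fell in *ubp12/13* from 148 ± 15.7 to 49.4 ± 2.69 CPM (SD, n = 3; log2FC −1.59, standard error 0.10, adjusted p = 4e-05, edgeR). The peak over *DOG1* did not reach the gene body of *CIPK20*, but overlapped the 2 kb upstream of its start. AT5G45840, a leucine-rich repeat kinase gene 2410 bp upstream, gave 0.22 on the log2 scale (standard error 0.20, adjusted p = 0.462, edgeR). The increase of *DOG1* was thus not shared by the genes on either side.

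Over the 12 libraries, the genes whose log2 CPM most resembled that of *DOG1* were AT3G51180 (a zinc finger protein gene, r = 0.97), AT3G07200 (a RING/U-box gene, r = 0.97) and AT5G23575 (a CLPTM1 family gene, r = 0.96). These are Pearson correlations over libraries that share genotypes, and describe likeness only. Their log2FC in *ubp12/13* against wt was 1.35, 0.90 and 0.65 respectively, and AT3G51180 alone was called. AT3G07200 was also called without wt replicate 2 (log2FC 1.13) and with library totals (1.05). None of the 3 has a peak over its gene body.

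The other 5 regulators stayed at or near 0 in all genotypes. *LEC1*, with its peak, and *ABI3* had 0 counts throughout. *L1L* had 1 or 2 counts in every library, 6 in sum in wt and 6 in *ubp12/13*. With the deeper *ubp12/13* libraries this was 0.260 CPM in wt and 0.140 in *ubp12/13* (exact permutation p = 0.1, the smallest possible). Its annotation overlaps both neighbours, AT5G47660 and AT5G47680, so that reads in the overlaps may have been dropped as ambiguous.

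*LEC2* had 0, 1 and 1 counts in wt, 5, 2 and 1 in *ubp12*, 1, 1 and 0 in *ubp13* and 2, 2 and 0 in *ubp12/13*. The genotypes overlapped, and the 5 counts of *ubp12* replicate 1 were its highest value.

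*FUS3* had 0 counts in all 3 wt libraries, 1, 1 and 1 in *ubp12*, 0, 0 and 1 in *ubp13* and 7, 4 and 1 in *ubp12/13*. Every *ubp12/13* library was therefore above every wt library, by as little as 1 count. The mean in *ubp12/13*, 0.280 CPM, lay below the level that 3 counts stand for in wt, so that no fold can be given. The exact permutation test of CPM gave p = 0.1, the smallest possible, and edgeR without the filter on low counts gave an adjusted p of 0.0878. The same permutation p was reached by *FUS3* in *ubp12* and, at a lower level than in wt, by *L1L* in *ubp12/13*. *FUS3* thus stands as a few reads that did not pass a test at this depth.

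The storage and oil body genes were silent too, including both with a peak. *CRA1* had 2, 2 and 1 counts in wt, 0, 0 and 1 in *ubp12*, 0, 1 and 0 in *ubp13* and 6, 2 and 1 in *ubp12/13*. Its mean was 0.208 CPM in wt and 0.215 in *ubp12/13*, with an exact permutation p of 1. In *ubp12* (0.0506 CPM) and *ubp13* (0.0280 CPM) its mean was lower than in wt, each with an exact permutation p of 0.1. No library of wt, *ubp12* or *ubp13* had more than 2 counts, so that no direction can be read from these means. *CRB* had no count, and *CRC*, the third cruciferin gene, had 1 count in *ubp12/13* replicate 1 alone. *OLEO1* had 1 count in wt replicate 1 and 1 in *ubp12* replicate 1, and none in *ubp13* and *ubp12/13*. Its annotation overlaps the end of AT4G25150, where reads may be ambiguous.

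Summed over the 9 genes other than *DOG1*, there were 14 counts in the wt libraries, 18 in *ubp12*, 7 in *ubp13* and 32 in *ubp12/13*. These came out of 23969110, 24603656, 35283956 and 39738899 nuclear counts. Of the 32 counts, 18 came from *ubp12/13* replicate 1, whereas replicate 3 had 4, as many as wt replicate 3.

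**Figure D4:**
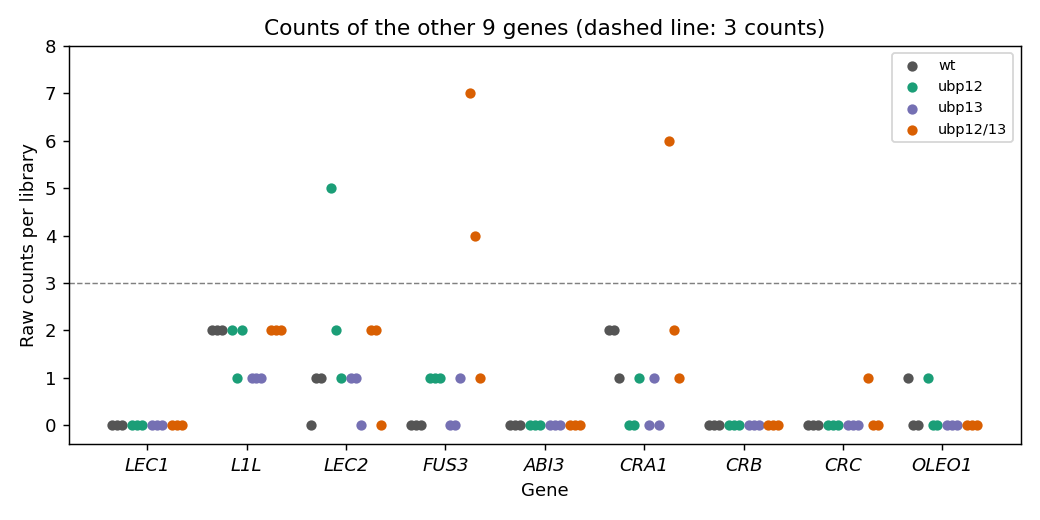
Raw counts per library of the 9 genes other than *DOG1*, coloured by genotype, with a dashed line at 3 counts. *FUS3* and *CRA1* in *ubp12/13* and *LEC2* in *ubp12* have the 4 values above the line, none over 7.

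The neighbours of the other 3 genes with a peak were read as for *DOG1*. *PMSR4*, under the *OLEO1* peak, differed by −0.29 on the log2 scale in *ubp12/13* against wt (standard error 0.13, adjusted p = 0.112, edgeR), and AT4G25150 one of 0.69 (adjusted p = 0.131). Beside *CRA1*, *ABCI21* (AT5G44110) had 0.24 (adjusted p = 0.459) and *FLA13* (AT5G44130) −0.88 (adjusted p = 0.00331, under the fold minimum). Beside *LEC1*, AT1G21960 had 0 counts and *PIP5K1* (AT1G21980) a log2FC of −0.64 (adjusted p = 0.0036, under the fold minimum). None of these 6 was called with all libraries, and without wt replicate 3 *FLA13* was (log2FC −1.05).

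A wider set of 74 genes of the seed programme and its repressors was then read in *ubp12/13* against wt, in 7 lists. Of these, 30 passed the filter, 4 were called higher and 0 lower, with a median log2FC of 0.16 beside −0.0018 over all genes tested, of which 5.94% were called higher and 4.02% lower. Of the 4, *ABI5* and *LEA4-5* passed the filter through the *ubp12/13* libraries alone, so that only a higher level could be found for them, and their calls add no support to the direction of the count. DESeq2 also called 4. In the single mutants 0 of 30 tested were called in *ubp12* and 0 of 30 in *ubp13*, by edgeR and by DESeq2, with 4 genes in each at an unadjusted p under the 0.05 threshold by edgeR. In *ubp12* against wt, *DGAT1* (log2FC 0.93, adjusted p = 0.0483, edgeR) and *FAD3* (log2FC 0.67, adjusted p = 0.0330, edgeR) passed the p threshold and not the fold minimum.

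Among 12 further regulators of seed maturation, 5 passed the filter, 1 was called higher and 0 lower, beside the 5.94% and 4.02% of all genes. *ABI5* (AT2G36270), a bZIP factor of abscisic acid signalling, had 0.543, 0.375 and 0.627 CPM in wt and 2.57, 2.71 and 2.72 in *ubp12/13*, without overlap. Its log2FC was 2.36 (standard error 0.29, adjusted p = 5.9e-04, edgeR), and the interaction value of 1.48 had an adjusted p of 0.157. *WRI1*, a factor of seed oil synthesis, had a log2FC of 0.04 (adjusted p = 0.878). *ABI4*, *bZIP53* and *MYB115* had no counts.

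The 9 repressors of the seed programme all passed the filter and 0 were called by edgeR or DESeq2, with 3 of them at an unadjusted p under the 0.05 threshold by edgeR. Of all genes tested 9.96% were called by edgeR, so that 0 of 9 is not a result about these genes. *VAL1* had a log2FC of −0.08 and *VAL2* one of 0.11, while *VAL3* (0.96, adjusted p = 0.0252), *SCL15* (0.89, adjusted p = 0.0192), a GRAS-domain repressor of seed genes, and the histone deacetylase gene *HDA19* (0.31, adjusted p = 0.0238) passed the p threshold and not the fold minimum. *SCL15* also carried a peak of H2Aub1 increase.

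Of 13 genes for PRC1, PRC2 and EMF1c subunits, 12 passed the filter, 1 was called higher and 0 lower, beside the same 5.94% and 4.02%. *RING1B* (AT1G03770), an H2A ubiquitin ligase of PRC1, had 3.37, 4.63 and 3.29 CPM in wt and 8.30, 7.76 and 9.22 in *ubp12/13*, a 2.22-fold difference (log2FC 1.15, standard error 0.17, adjusted p = 0.00164, edgeR). Neither *ubp12* (log2FC −0.18, adjusted p = 0.788) nor *ubp13* (log2FC −0.25, adjusted p = 0.894) passed the test. The interaction value of 1.59 (standard error 0.25, adjusted p = 0.0011, edgeR) passed. Its partner gene *RING1A* had a log2FC of 0.67 (adjusted p = 0.0148), under the fold minimum. No gene of this list carried a peak.

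Seed oil and desiccation genes gave 1 call each, both higher, of 2 and 1 genes tested, beside 5.94% of all genes called higher. *DGAT1* (AT2G19450), which makes the last acylation in triacylglycerol synthesis, had 5.32, 6.38 and 5.01 CPM in wt, 8.04, 12.4 and 11.8 in *ubp12*, 8.10, 6.39 and 10.1 in *ubp13*, and 26.0, 19.9 and 24.4 in *ubp12/13*. Its log2FC in *ubp12/13* was 2.06 (standard error 0.15, adjusted p = 7.3e-05, edgeR). It was 1 of 2 genes tested among 13, the oleosin gene *OLEO2* having no counts. *LEA4-5* (AT5G06760), a late embryogenesis abundant gene under a peak, had 1 count in each wt library and 7, 29 and 45 in *ubp12/13* (adjusted p = 0.0173, edgeR). Its mean CPM in *ubp12/13* was 4.81 times the level that 3 counts per library stand for in wt. That ratio allows for counting error in wt and not for the spread of the *ubp12/13* libraries. *LEA4-5* was the only gene tested among 11. Leaving out any 1 of the wt libraries ended the call, with an adjusted p of 0.0549 to 0.0685 by edgeR. Without *ubp12/13* replicate 2 or 3 it did not pass the filter. Its *ubp12/13* libraries ranged over 0.528 to 3.40 CPM.

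**Figure D5:**
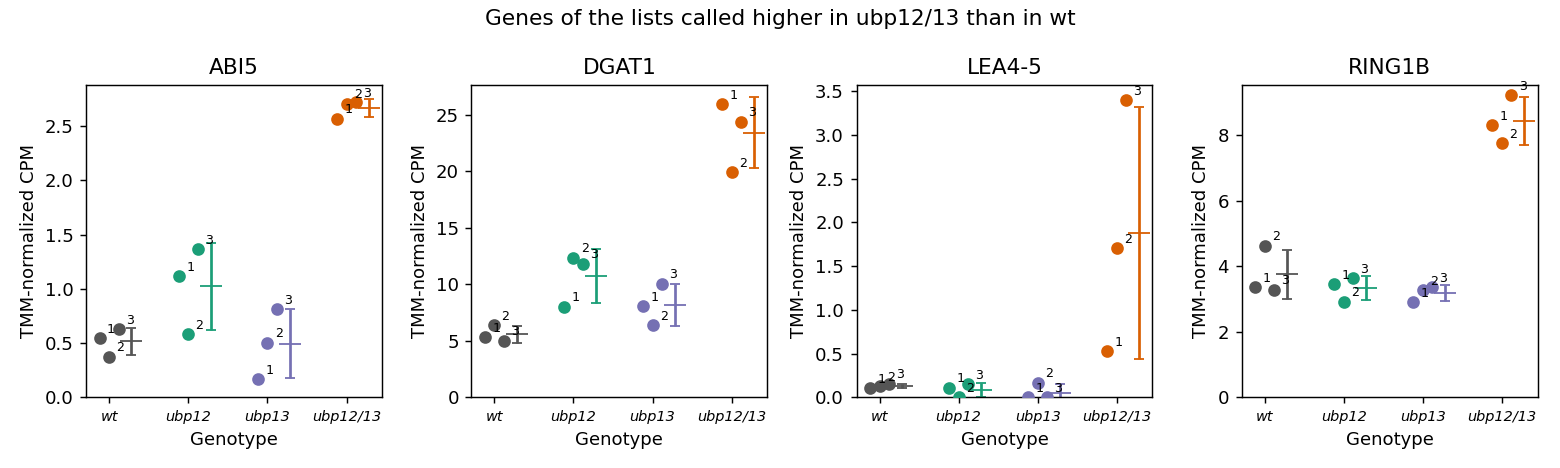
Level of *ABI5*, *DGAT1*, *LEA4-5* and *RING1B* in TMM-normalized CPM in each library (points, with the replicate number) by genotype, with the mean and SD (n = 3). All *ubp12/13* libraries lie above all others in the 4 panels, and the *LEA4-5* values in *ubp12/13* range from 0.528 to 3.40 CPM.

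Among the 10 other storage protein genes, 0 passed the filter, and *SESA1* to *SESA5*, the 2S albumin genes, had no counts. AT4G36700, a vicilin-like gene, had 0, 27 and 9 counts in the *ubp12/13* libraries and at most 1 in any other. Peaks of H2Aub1 increase lay over 6 of these 10 genes (60%), the 5 *SESA* genes and AT2G18540. Of the 6 genes for DOG1 partners and relatives, 4 had a peak over the gene body, *DOGL1* to *DOGL4*, beside 4.02% of all protein-coding genes. The peak of *DOGL4* missed the first 1 kb. The counts of these 4 genes were 0 to 3 in every library. They lie close together on chromosome 4, as do *SESA1* to *SESA4*, so that the shares of genes with a peak do not count independent loci. The only 1 of the 6 that passed the filter, *AHG3*, a protein phosphatase gene, had a log2FC of 0.30 (adjusted p = 0.163). Over the 7 lists, 18 of 74 genes (24.3%) had a peak over the gene body, beside 4.02% of all protein-coding genes and 7.12% of those under the filter. Of these 18 and the 4 among the 10 genes, *DOG1* and *LEA4-5* were called higher in *ubp12/13*, and *SCL15* alone of the rest passed the RNA filter.

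Among all protein-coding genes with a peak in the first 1 kb, 338 of 982 passed the filter, and 60 of these (17.8%) were called higher and 38 (11.2%) lower in *ubp12/13*. Without a peak, 979 of 17179 (5.7%) were higher and 643 (3.74%) lower. *DOG1* is 1 of the 60. The filter passed 34.4% of the genes with a peak and 64.9% of those without. Genes that passed through *ubp12/13* alone could only be called higher, and those that passed through wt alone only lower. Such genes were not counted, so that these shares also depend on the filter.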

How the data were processed

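Whole seedlings gave 12 RNA-seq libraries, and rosette leaves gave the ChIP-seq peaks. The deposited values are raw counts per gene. The authors trimmed reads with cutadapt 1.18, mapped them to TAIR10 with TopHat2, kept reads by length and mapping quality, and counted with HTSeq 0.11.1, without normalization or pooling. The deposited peaks of H2Aub1 increase were called by the authors with MACS2 against H3 and compared with MAnorm. Peaks changing alike in both replicates were merged. Their score column, as deposited, holds 1 throughout and was not used.

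Organellar genes were left out. Each pair of genotypes was fitted in R 4.3.3 with edgeR 4.0.16 (TMM, quasi-likelihood test, Benjamini-Hochberg adjustment over all genes tested) on its 6 libraries, and the interaction on all 12. Every adjusted p is from this fit unless DESeq2 is named. The filter was CPM over 1 in 2 or more libraries, and calls needed both an adjusted p below 0.05 and a log2FC of 1 or more in size. Log2 CPM for correlations used a prior count of 2. Positions are from the TAIR10.1 annotation. Python 3.11.15 was used for peaks and figures. A peak over at least 1 bp of the first 1 kb counted. Named are the 10 genes, *UBP12*, *UBP13*, called list genes, the 3 genes most like *DOG1* and the annotated protein-coding neighbours of genes with a peak or a call. Other list and marker genes were named after their values were seen. The genes and lists were chosen with earlier results of these data known.

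Alternatives were RLE factors, library totals, DESeq2 1.42.0, other filters, a replicate block, thinned counts, organellar genes kept, a common fit, no fold minimum, each library left out, and other peak overlaps. In simulated *ubp12/13* and wt libraries (17800 genes), 199 of 200 genes changed by a log2 of 2 were called, with 0 false calls. In the other comparisons 1 to 4 unchanged genes were called, the most in *ubp13* against wt. Every simulated gene had the same dispersion, and only genes above a minimum level were changed. Genes whose replicates vary more widely were thus not covered. Smaller changes, such as the log2FC of 1.53 for *DOG1*, were not tested in this way, and neither were genes under the filter. Replicates are described as biological, and pairs of them differed by more than sampling noise (chi-square per degree of freedom 5.51 to 18.9).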

Additional observations from a re-analysis of the deposited data

Results flagged for a closer look

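Among the 10 genes, the lists and the other genes named above, 4 had a change in *ubp12/13* that differed from the sum of both single mutant changes. This was read from the interaction test of edgeR over all 12 libraries. None of the 4 was among the 10 genes. *LHCB1.3*, a leaf marker gene not named above, was also called below the sum, with a value of −1.13 (adjusted p = 0.0018, edgeR). *RING1B* was above the sum by 1.59 on the log2 scale (adjusted p = 0.0011), higher in 3 of 3 *ubp12/13* libraries than in any other. *CIPK20*, next to *DOG1*, was below the sum, with a value of −1.23 (adjusted p = 3.5e-04), lower in 3 of 3 *ubp12/13* libraries than in any other. *EEL*, which encodes a bZIP factor of late embryogenesis, was above the sum by 1.53 on the log2 scale (adjusted p = 0.0449), with 1.88 to 4.15 CPM in *ubp12/13* overlapping the 2.28 to 2.88 of wt. It kept this call under 9 of 20 alternatives, where the adjusted p reached 0.0979. *FAD3*, an omega-3 desaturase gene of seed oil, was below the sum, with a value of −1.02 (adjusted p = 0.0058), at 50.9 to 57.8 CPM in wt, 70.0 to 98.9 in *ubp12*, 51.0 to 77.7 in *ubp13* and 47.6 to 49.6 in *ubp12/13*. It kept this call under 14 of 20 alternatives, which moved it between −1.14 and −0.81. Against wt, neither *EEL* (log2FC 0.17, adjusted p = 0.718, edgeR) nor *FAD3* (log2FC −0.13, adjusted p = 0.293, edgeR) passed the test in *ubp12/13*. Of the list genes, 32 were tested for the interaction, and 2 were called above and 1 below the sum. Of all 18212 genes tested for the interaction, 6.37% were called. The count of flagged genes was not tested against this share.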

How the results depend on the processing

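*DOG1* kept its call in *ubp12/13* against wt under all 16 alternatives, with a log2FC of 1.22 to 1.95 (1.22 to 1.95 with 1 library left out) and an adjusted p of up to 0.0148. In *ubp12* against wt it ranged from 0.58 to 1.32 with 1 library left out, so that 0 to 1 of the 10 genes were called. In *ubp13* against wt the range was 0.11 to 0.84. Against *ubp13* it ranged from 0.98 to 1.25 with 1 library left out, and 0 to 1 genes were called. Against *ubp12* it was 0.63 without the fold minimum, and 1 gene was then called. The interaction ranged from −0.21 to 0.53 with 1 library left out, the only reversal. The cause of these changes was not tested.

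Counts over all genes in *ubp12* against wt were 55 to 158 with 1 library left out (121 with all; 64 without wt replicate 3, 55 without *ubp12* replicate 1 and 62 without *ubp12* replicate 3), and 201 without the filter. In *ubp13* they were 3 to 5 with 1 library left out (3 without wt replicate 2), 9 with DESeq2, 8 without the filter and 3 with the replicate block, against 5. Without the fold minimum the counts were 317 (*ubp12* against wt), 5572 (*ubp12/13* against wt), 4750 (against *ubp12*), 5887 (against *ubp13*) and 2621 (interaction), and with CPM over 1 in all libraries 834 genes were called against *ubp12*, where 1273 were called with the main filter.

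The replicate numbers were not taken as pairs, since in no fitted comparison of 2 genotypes did every same-numbered pair correlate over 0.1 in its deviations. These correlations were −0.06, −0.16 and −0.12 for wt with *ubp12/13*, and positive between mutants, at 0.04, 0.15 and 0.29 for *ubp12* with *ubp12/13* and 0.01, 0.17 and 0.25 for *ubp13* with *ubp12/13*. Between *ubp12* and *ubp13*, which were not fitted as a pair but both enter the interaction, they were 0.147, 0.102 and 0.215. For *ubp12/13* against *ubp12* the block lowered the biological coefficient of variation from 12.0% to 8.37%. Against *ubp13* it fell from 12.2% to 9.29% and in the interaction from 12.3% to 11.1%, while against wt it rose from 12.9% to 13.6%. Pairing among the mutants was thus not excluded. With the replicate block *DOG1* had a log2FC of 1.56 (adjusted p = 0.0067) in *ubp12/13* against wt, and the block changed no call of *DOG1*. The number of the 10 genes with a peak was 3 under the 500 bp overlap and for peaks of at least 1000 bp, and 4 with the whole gene body or with 2 kb upstream added. Depth limits the 9 genes at or near 0, where a level under 0.176 to 0.470 CPM per library could not be told from 0.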
